A study of Mus musculus with 29 samples.

Results

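The Schlafen family was represented by the 7 mouse genes Slfn1, Slfn2, Slfn3, Slfn4, Slfn5, Slfn8 and Slfn9, which were picked out by symbol among the 48709 Ensembl identifiers of each count table. All 7 were found in each of the 3 experiments of the series. Schlafen genes encode cytosolic and nuclear proteins of immune cells that restrain proliferation and viral replication, and many of them are induced by type I interferon. The short proteins Slfn1 and Slfn2 carry only the core domain of the family, Slfn3 and Slfn4 are of intermediate length, and Slfn5, Slfn8 and Slfn9 are long and end in a helicase-like domain. Slfn2 is needed to keep T cells and monocytes quiescent, Slfn4 is best known from myeloid cells, and a bulk measurement as used here cannot tell fewer cells that express a gene from less RNA per cell.

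The study asked what lowering miR-99b-5p does to gene expression in the brain and in microglia, the resident macrophages of the brain. The inhibitor, called anti-miR-99b, is an antisense oligonucleotide with locked nucleic acid (LNA) bases, and sc-control is an oligonucleotide with a scrambled sequence. The first experiment used the prefrontal cortex (PFC) of male C57BL/6J mice aged 3 months, with 3 mice injected with anti-miR-99b and 3 with sc-control, in lipid nanoparticles. The PFC of one side was taken 5 days after the injection. The second used primary microglia of CD1 mice, taken at postnatal day 1 and shaken off mixed glial cultures, with 4 cultures given anti-miR-99b and 4 given sc-control. These were grown with medium conditioned by L929 cells. The third used co-cultures of CD1 cortical neurons from embryonic day 17.5 with primary microglia that had been treated before they were added, 7 with the inhibitor and 8 with the scrambled control. The labels name no transgene or deletion, and RNA of the co-cultures came from neurons and microglia together. Each library was a separate biological sample. Polyadenylated RNA was sequenced as single reads, so that the mature microRNA itself was not measured in these libraries.

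Libraries held between 21324200 and 37901100 reads assigned to genes, to 6 digits, and any pair of replicates differed by more than counting noise. Levels are given as CPM, the reads of a gene scaled by a library total normalized by TMM (trimmed mean of M-values). Microglial markers summed to between 11366 and 12014 CPM in the microglia. They summed to between 574 and 777 CPM in the PFC and between 176 and 212 CPM in the co-cultures. Of the 15 microglial markers, Siglech was near 0 in the microglia, at a mean of 0.183 CPM in the sc-control libraries. Neuronal markers summed to between 9346 and 10163 CPM in the PFC and between 8073 and 8390 CPM in the co-cultures.

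The 7 genes lie side by side on chromosome 11, at chr11:82951349-83215154 in GRCm38, a stretch of 263.8 kb with 21 annotated genes. Slfn5 comes first, at chr11:82951349-82964840 on the plus strand. Slfn9 (chr11:82978390-82991830) and Slfn8 (chr11:83002158-83020810) follow on the minus strand. Slfn2 (chr11:83065112-83070678), Slfn1 (chr11:83116849-83122670), Slfn4 (chr11:83175186-83190216) and Slfn3 (chr11:83191330-83215154) are again on the plus strand. All 7 are annotated as protein coding, and a pseudogene, Slfn10-ps, lies between Slfn8 and Slfn2. The paralogs are alike in parts of their exons. Of all 50-base windows, the read length, 14.6% of those of Slfn8 and 11.2% of those of Slfn9 also occurred in another gene of the family, mostly in Slfn10-ps, and 8.2% of those of Slfn4 and 7.4% of those of Slfn3 did, mostly in each other. Slfn2 had 4.3% and Slfn1 0.6% of shared windows. Slfn5 had none, but 559 of its exonic bases overlap the antisense gene Slfn5os. The library kit does not mark the strand, so that reads of the pair cannot be told apart, and Slfn5os itself was listed with 2 reads in PFC, 0 in microglia and 1 in co-culture libraries.

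The sequence of the targeted microRNA is shown first because its seed was looked for in the family. In the line below it is written 5′ to 3′, with the seed (bases 2 to 8) in capitals, as RefSeq gives it at chr17:17830194-17830215 on the plus strand of GRCm38.p6.
miR-99b-5p: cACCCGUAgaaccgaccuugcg
The match to this seed, TACGGGT, was found in the annotated 3′ UTR of 0 of the 7 members, against 1.37% of 21173 genes with such a UTR. The shorter matches ACGGGT (6.94% of genes) and TACGGG (5.08%) were also found in 0 members.

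The promoters of the family are shown because its members are known as interferon-induced genes. RefSeq promoters (GRCm38.p6, from 250 bases before to 50 bases after a start site) were given for all 7 members, with 2 start sites for Slfn8. They were searched on both strands for the core of the interferon-stimulated response element (ISRE), GAAANNGAA, and for the gamma-activated site, TTCNNNGAA. The ISRE core was present in the promoters of 3 members, Slfn5, Slfn8 and Slfn9, against 8.56% of 32851 promoters, and the gamma-activated site was found in 0 members against 8.30%. The promoters of these 3 genes and that of Slfn2, the member with the highest level, are given 5′ to 3′ on the strand of the gene with ISRE cores in capitals.
Slfn5, chr11:82951852-82952151, plus strand: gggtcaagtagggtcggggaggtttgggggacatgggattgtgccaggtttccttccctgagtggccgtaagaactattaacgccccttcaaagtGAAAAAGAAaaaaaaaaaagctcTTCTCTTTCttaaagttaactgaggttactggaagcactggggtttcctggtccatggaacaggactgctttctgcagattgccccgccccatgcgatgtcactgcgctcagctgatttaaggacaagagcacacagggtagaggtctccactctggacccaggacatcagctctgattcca
Slfn9, chr11:82991781-82992080, minus strand: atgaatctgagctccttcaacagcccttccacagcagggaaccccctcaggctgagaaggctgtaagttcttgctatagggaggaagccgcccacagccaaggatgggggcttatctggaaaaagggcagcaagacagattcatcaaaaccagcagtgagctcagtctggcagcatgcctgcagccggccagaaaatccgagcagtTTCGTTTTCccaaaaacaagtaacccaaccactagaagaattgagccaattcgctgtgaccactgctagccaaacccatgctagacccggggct
Slfn8, chr11:83020761-83021060, minus strand: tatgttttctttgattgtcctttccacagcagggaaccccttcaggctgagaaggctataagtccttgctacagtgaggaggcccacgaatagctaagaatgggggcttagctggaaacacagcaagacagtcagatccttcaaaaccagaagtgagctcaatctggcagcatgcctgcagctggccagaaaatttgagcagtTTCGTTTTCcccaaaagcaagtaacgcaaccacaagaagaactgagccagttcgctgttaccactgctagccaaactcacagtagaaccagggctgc
Slfn2, chr11:83064862-83065161, plus strand: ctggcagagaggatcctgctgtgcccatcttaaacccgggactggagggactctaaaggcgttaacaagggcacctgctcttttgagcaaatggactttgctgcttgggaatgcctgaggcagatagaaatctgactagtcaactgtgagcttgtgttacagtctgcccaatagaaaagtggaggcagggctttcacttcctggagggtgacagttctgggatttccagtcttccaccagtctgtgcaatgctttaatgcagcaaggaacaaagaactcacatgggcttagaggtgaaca
Slfn5 had 2 cores, which began at positions −155 and −132 from the start site, on opposite strands. The core of Slfn9 began at −44 and that of Slfn8 at −47, or at −135 from the other start site of Slfn8. In the 25-base windows around them, Slfn9 and Slfn8 were equal at 22 positions and at all 9 positions of the core. These matches are letters of the sequence and not measured binding.

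In the sc-control libraries, the family was highest in primary microglia, and Slfn2 led in every experiment. Levels between genes are compared as CPM per kilobase of exon. In the microglia, Slfn2 stood at 119.8 ± 9.53 CPM per kb (mean ± SD, n = 4), followed by Slfn5 at 12.3 ± 1.82, Slfn8 at 8.49 ± 0.708 and Slfn9 at 8.23 ± 0.433. The libraries of Slfn8 and Slfn9 overlapped, while those of Slfn2 and Slfn5 stood apart from the rest. Slfn3 was lower at 0.607 ± 0.147 CPM per kb, and Slfn1 and Slfn4 were close to 0, with at most 5 reads in any sc-control library.

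In the PFC, Slfn2 was again first, at 2.11 ± 0.781 CPM per kb (n = 3), before Slfn5 at 1.08 ± 0.309 and Slfn8 at 0.668 ± 0.339. Slfn4 at 0.325 ± 0.204, Slfn1 at 0.273 ± 0.170 and Slfn9 at 0.165 ± 0.0581 came next, and Slfn3 was last at 0.0850 ± 0.0247 CPM per kb. Each gene from Slfn8 to Slfn9 in this order overlapped the one above it, whereas Slfn2 lay above Slfn5 and Slfn3 below Slfn9 without overlap.

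In the co-cultures, Slfn2 stood at 3.05 ± 0.418 CPM per kb (n = 8) and Slfn9 was second, at 0.918 ± 0.104. Slfn8 at 0.250 ± 0.0876 and Slfn5 at 0.0985 ± 0.0201 overlapped each other. Slfn4 at 0.0291 ± 0.0131 and Slfn3 at 0.0158 ± 0.0106 rested on at most 6 reads in any sc-control library, and Slfn1 had 2 reads in 1 of 8 libraries and 0 in the others. The place of Slfn9 thus changed from the sixth in the PFC to the second in the co-cultures. Slfn9 made up 3.55% ± 0.504 of the summed level of the family per kb in the PFC. It made up 5.53% ± 0.461 of that sum in the microglia but 21.2% ± 3.00 in the co-cultures. Slfn2 made up 45.1% ± 1.44, 80.2% ± 0.589 and 69.8% ± 3.36 in the same order.

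**Figure D1:**
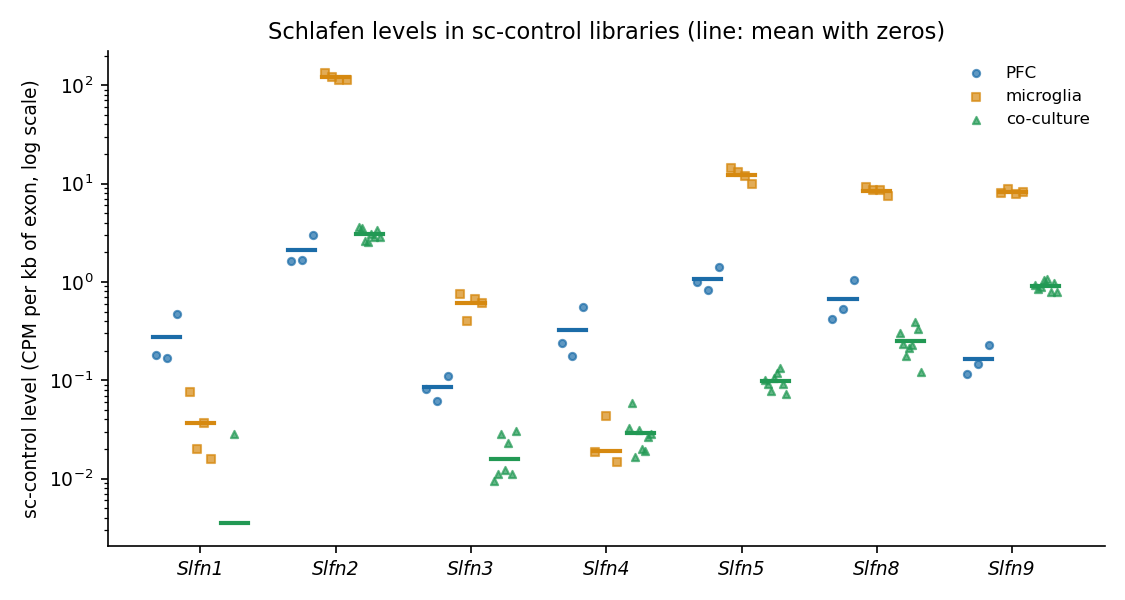
Levels of the 7 Schlafen transcripts in sc-control libraries, in CPM per kb of exon on a log scale, for PFC (circles), microglia (squares) and co-cultures (triangles). Each symbol is a library, the line is the mean with libraries at 0 included, and libraries at 0 are not drawn. Slfn2 is the highest in every experiment, at a mean of 119.8 CPM per kb in the microglia, and Slfn1 and Slfn4 are higher in the PFC than in either culture.

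The control levels were compared between experiments in one edgeR quasi-likelihood fit over the 15 sc-control libraries, with Benjamini-Hochberg adjustment. A member passed at an adjusted p-value below 0.05 with a log2 difference beyond 1 in either direction. Between microglia and PFC, 6 of the 6 members tested passed, where 63.4% of 18274 genes did. Higher in the microglia were 5 of the 6, where 26.4% of genes were. Slfn2 was 65.3-fold higher (log2 difference 6.03, SE 0.11), Slfn9 57.7-fold, Slfn8 14.6-fold, Slfn5 13.0-fold and Slfn3 8.04-fold. Slfn4 went the other way, with a log2 difference of −3.74 (SE 0.49) from 1.29 ± 0.810 CPM in the PFC to 0.0758 ± 0.0707 CPM in the microglia. Slfn1 was too low to be tested and stood at 0.509 ± 0.316 CPM in the PFC and 0.0690 ± 0.0511 CPM in the microglia. The microglial markers had a median log2 difference of 3.75 in this comparison and the median of all genes was −0.15.

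Slfn1 and Slfn4 were thus the members detected in the PFC and close to the counting floor in the microglia. Markers of other leukocytes are given beside them. The list of 9 neutrophil markers summed to between 1.02 and 2.86 CPM in the PFC and that of 12 T and NK cell markers to at least 5.88 CPM in each PFC library. The microglia held 6.49 to 7.64 CPM of the neutrophil list, of which S100a9, Ly6g, Ngp and Retnlg were at 0, and 1.87 to 2.92 CPM of the T and NK cell list, of which Cd3e, Cd3g, Cd8a, Cd8b1 and Nkg7 were at 0. The 9 monocyte and macrophage markers summed to between 34.1 and 45.3 CPM in the PFC and between 556 and 587 CPM in the microglia, where Chil3 was at 0. In the co-cultures, where Slfn1 and Slfn4 were also close to the counting floor, the T and NK cell list summed to between 6.37 and 8.22 CPM. The neutrophil list reached at most 0.258 CPM there, and the monocyte and macrophage list lay between 187 and 220 CPM. The part of such cells in the levels of Slfn1 and Slfn4 was not tested.

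Between microglia and co-cultures, 5 of the 6 members tested passed, where 59.5% of genes did, and all 5 were higher in the microglia, where 24.3% of genes were. Slfn5 differed by 144-fold, Slfn2 by 44.9-fold, Slfn3 by 38.8-fold and Slfn8 by 38.3-fold, but Slfn9 by 10.3-fold. The median microglial marker was higher by 6.80 on the log2 scale, against 7.17 (SE 0.12) for Slfn5, 5.49 (SE 0.07) for Slfn2 and 3.37 (SE 0.07) for Slfn9. Slfn4 did not pass (log2 difference −0.28, SE 0.71, edgeR adjusted p = 0.711).

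Between co-cultures and PFC, 5 of 6 members passed, where 35.4% of genes did. Slfn9 was 5.58-fold higher in the co-cultures (log2 difference 2.48, SE 0.15), the direction of 14.9% of genes. Slfn3, Slfn4, Slfn5 and Slfn8 were lower there, by log2 differences of −2.27, −3.46, −3.46 and −1.39. Slfn2 differed by 0.54 (SE 0.14), under the limit of 1. The tissue, the strain, the age and the preparation changed together between experiments, so that their parts in these differences cannot be told apart.

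In the PFC, all 7 members passed the filter on low counts and all 7 had a higher mean after anti-miR-99b, with log2FC from 0.43 to 1.15 and a median of 0.63, where 50.6% of 17364 genes were higher. By edgeR's quasi-likelihood test 0 members passed the PFC threshold, which asked for an adjusted p-value below 0.1 together with a log2FC past 0.2 in size, and 0.0864% of genes did. By an unadjusted p-value under 0.05, 4 members were higher (Slfn2, Slfn5, Slfn8 and Slfn9), against 5.17% of genes. DESeq2 put 2 members, Slfn2 and Slfn9, past the threshold, and 93 of all genes against 15 in edgeR.

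Slfn9, a long member, had the largest log2FC. It stood at 1.88, 2.00 and 2.63 CPM in the mice given the inhibitor and at 0.698, 0.881 and 1.37 CPM in the sc-control mice. The groups did not overlap, as was so for 2 members and for 7.52% of all genes in that direction (13.3% in either). Its log2FC was 1.15 (SE 0.26), a 2.21-fold difference, with an adjusted p-value of 0.289 in edgeR's quasi-likelihood test and 0.0972 in DESeq2.

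Slfn2, the quiescence factor, was the other member without overlap. Its levels were 6.62, 6.00 and 7.00 CPM after anti-miR-99b and 2.74, 2.78 and 5.01 CPM after sc-control. The log2FC was 0.89 (SE 0.22), or 1.86-fold, with an adjusted p-value of 0.342 in edgeR and 0.0293 in DESeq2. For Slfn2 and for Slfn9 the exact permutation test gave p = 0.1 (two-sided), the smallest value that 3 against 3 mice allow.

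Slfn5, a nuclear member of the long group, had 8.29, 8.93 and 11.6 CPM after anti-miR-99b and 6.37, 5.18 and 9.00 CPM after sc-control, so that 1 sc-control mouse lay above 2 of the treated mice. Its log2FC was 0.49 (SE 0.20, edgeR adjusted p = 0.648). Slfn8 had 3.63, 4.29 and 5.79 CPM against 1.70, 2.18 and 4.31 CPM, with the same overlap and a log2FC of 0.74 (SE 0.31, edgeR adjusted p = 0.649). The counts of Slfn8 and Slfn9 carry the shared windows given above.

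The other 3 members were low and their groups overlapped. Slfn4 had 2.21, 1.61 and 1.51 CPM after anti-miR-99b and 0.950, 0.705 and 2.21 CPM after sc-control (log2FC 0.43, SE 0.37). Slfn1 had 0.776, 0.929 and 0.691 CPM against 0.335, 0.317 and 0.874 CPM (log2FC 0.63, SE 0.39). Slfn3 rested on 67 reads over the 6 libraries and had a log2FC of 0.63 (SE 0.37). The edgeR adjusted p-values of these 3 lay between 0.678 and 0.763. With 1 library left out, the log2FC of Slfn4 ran from 0.16 (without sc-control replicate 3) to 1.07 (without sc-control replicate 4) and that of Slfn1 from 0.38 (without sc-control replicate 2) to 1.27 (without sc-control replicate 4), none past the threshold.

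**Figure D2:**
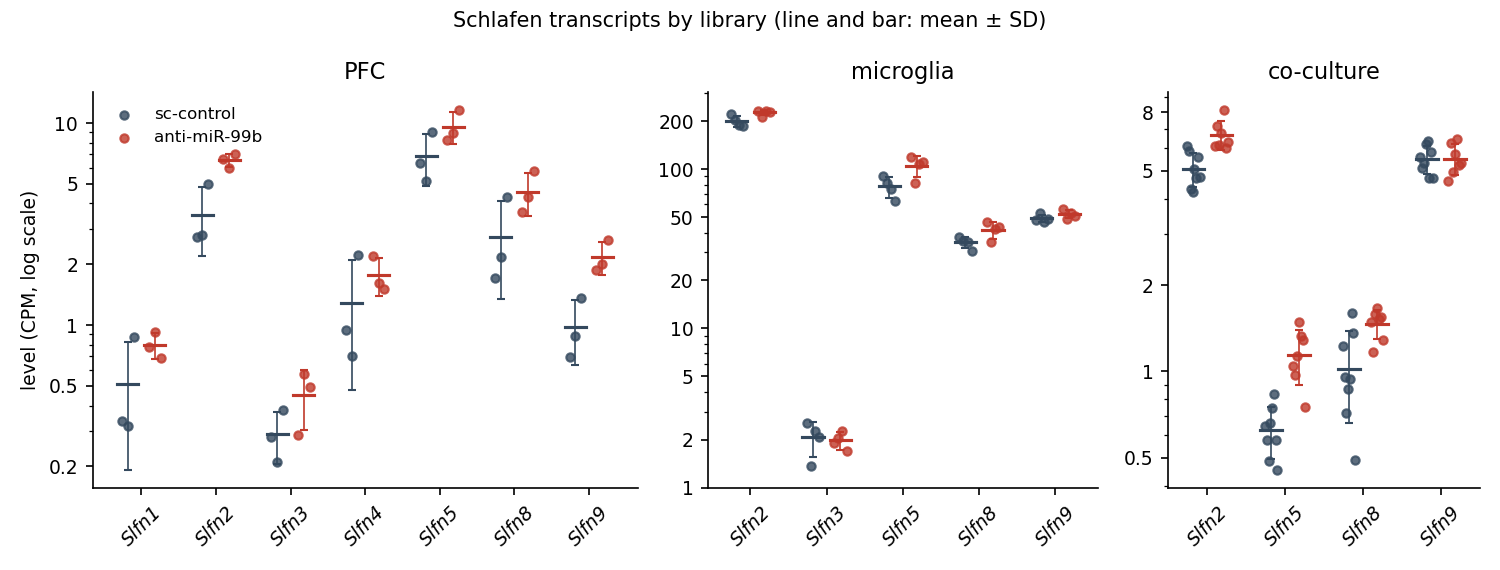
Level of each Schlafen transcript that passed the filter on low counts, in CPM on a log scale, in every library of the 3 experiments. Points are libraries, with sc-control in dark blue and anti-miR-99b in red, and lines with bars are the mean ± SD. In the PFC, Slfn2 and Slfn9 do not overlap between groups, and the highest sc-control point of each of the 7 genes is the same mouse.

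For each of the 7 members, the highest sc-control mouse was replicate 4, and the share of all genes for which this held was not computed. The library of this mouse was sequenced in lane 7 together with anti-miR-99b replicate 3, whereas the other 4 libraries were in lane 6. Within lane 6, all 7 members were higher in the 2 anti-miR-99b mice than in the 2 sc-control mice, against 23.4% of all genes. Within lane 7, 5 members were higher in the anti-miR-99b mouse than in the sc-control mouse and Slfn1 and Slfn4 were lower, where 45.7% of genes were higher. With the lane as a block, Slfn2 (edgeR adjusted p = 0.0536) and Slfn9 (0.0514) passed the threshold, as did 77 of all genes. The values within lanes were chosen after the data were seen, and with 1 mouse of a group in lane 7 the lane and the mouse cannot be told apart. Without sc-control replicate 4, 3 members (Slfn2, Slfn8 and Slfn9) passed the threshold, with edgeR log2FC of 1.24, 1.25 and 1.47 and adjusted p-values of 0.00805, 0.0486 and 0.0406. The count over all genes went from 15 to 201 with the same library left out. By leaving out each of the other 5 libraries in turn, 0 members passed.

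The summed microglial markers lay between 707 and 777 CPM after anti-miR-99b and between 574 and 754 CPM after sc-control, and 12 of the 15 markers were higher, with 0 past the threshold. Per 1000 CPM of these markers, Slfn2 stood at 8.88 ± 1.00 CPM after anti-miR-99b and 5.38 ± 1.10 CPM after sc-control, and Slfn9 at 2.94 ± 0.564 and 1.51 ± 0.315 CPM (n = 3 each). The groups of the other 5 members overlapped on this scale, for which the share of all genes without overlap was not computed. In plain CPM, 7.52% of genes were higher without overlap. The log2 ratio of the group means ran from 0.30 for Slfn5 to 0.96 for Slfn9 over the 7 members. Neutrophil markers summed to between 1.76 and 2.86 CPM after anti-miR-99b and between 1.02 and 1.79 CPM after sc-control. The part of cell makeup in the differences of the family was not tested.

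In primary microglia, Slfn2 and Slfn5 rose after anti-miR-99b, by 1.14-fold and 1.35-fold. They were 2 of the 5 members that passed the filter, where 0.435% of 14953 genes rose and 0.0535% fell, 0.488% in all. The threshold here was an adjusted p-value below 0.1 with a log2FC past 0.1 in size. Slfn8, Slfn9 and Slfn3 did not pass, and Slfn1 (24 reads over 8 libraries) and Slfn4 (31 reads) were under the filter. Of the 5 members tested, 4 had a log2FC above 0, as did 51.6% of genes, and 3 were higher at an unadjusted p-value below 0.05 (Slfn2, Slfn5 and Slfn8), as were 3.4% of genes. The groups were free of overlap for 0 members, against 1.65% of genes that were higher without overlap and 3.44% in either direction.

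Slfn5 had 119, 82.2, 108 and 110 CPM in the anti-miR-99b cultures and 90.5, 82.1, 75.3 and 63.3 CPM in the sc-control cultures. Of the anti-miR-99b libraries, 3 lay above every sc-control library and replicate 3 lay among them. The log2FC was 0.44 (SE 0.09), with an adjusted p-value of 0.0272 in edgeR's quasi-likelihood test but 0.594 in DESeq2. Slfn2 had 232, 213, 233 and 228 CPM against 220, 203, 188 and 186 CPM, again with replicate 3 as the lowest treated library. Its log2FC was 0.19 (SE 0.04, edgeR adjusted p = 0.0495). The exact permutation test gave p = 0.0571 (two-sided) for either gene.

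The calls depended on single libraries. With anti-miR-99b replicate 1, 4 or 5 or sc-control replicate 4 or 6 left out, 0 members passed in edgeR, with log2FC of 0.34 to 0.43 and adjusted p-values of 0.110 to 0.237 for Slfn5, and log2FC of 0.15 to 0.18 and adjusted p-values of 0.184 to 0.342 for Slfn2. Without anti-miR-99b replicate 3 or without sc-control replicate 2, Slfn8 passed too, with a log2FC of 0.35 or 0.31 and an edgeR adjusted p-value of 0.00120 or 0.0149.

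Slfn8 had 46.3, 34.7, 42.1 and 43.4 CPM after anti-miR-99b and 37.7, 35.6, 34.8 and 30.8 CPM after sc-control, a log2FC of 0.27 (SE 0.07) with an edgeR adjusted p-value of 0.120. Slfn9 had 56.5, 48.9, 53.2 and 50.8 CPM against 48.1, 52.7, 46.6 and 49.0 CPM. Its log2FC was 0.09 (approximate 95% interval 0.0050 to 0.18, edgeR unadjusted p = 0.0505, edgeR adjusted p = 0.771). Slfn3 stood at 1.99 ± 0.246 CPM and 2.07 ± 0.501 CPM, and its interval ran from −0.35 to 0.27.

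Among the 4 well-measured members, anti-miR-99b replicate 3 was the lowest treated library of Slfn2, Slfn5, Slfn8 and Slfn9 alike. The share of all genes for which this held was not computed. This library was sequenced in lane 5 with anti-miR-99b replicate 1 and sc-control replicates 2 and 3. Within lane 5 the groups overlapped for all 5 members tested, and within lane 6 the 2 treated libraries lay above both sc-control libraries for Slfn2, Slfn5, Slfn8 and Slfn9, where 20.6% of genes did so (13.4% in lane 5). In both lanes at once this held for 0 members and 2.97% of genes. The pseudogene Slfn10-ps, which shares read-length windows with Slfn8 and Slfn9, had 10.2 ± 0.533 CPM after anti-miR-99b and 9.30 ± 0.741 CPM after sc-control (log2FC 0.15, SE 0.07, edgeR adjusted p = 0.767).

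The summed microglial markers lay between 11569 and 12014 CPM in the treated and between 11366 and 11765 CPM in the sc-control cultures, with 0 of 14 tested markers past the threshold. Per 1000 CPM of them, Slfn5 stood at 8.87 ± 1.44 CPM after anti-miR-99b and 6.70 ± 0.966 CPM after sc-control, and Slfn2 at 19.2 ± 0.997 and 17.2 ± 1.33 CPM (n = 4 each), with an exact permutation p of 0.0857 for either.

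**Figure D3:**
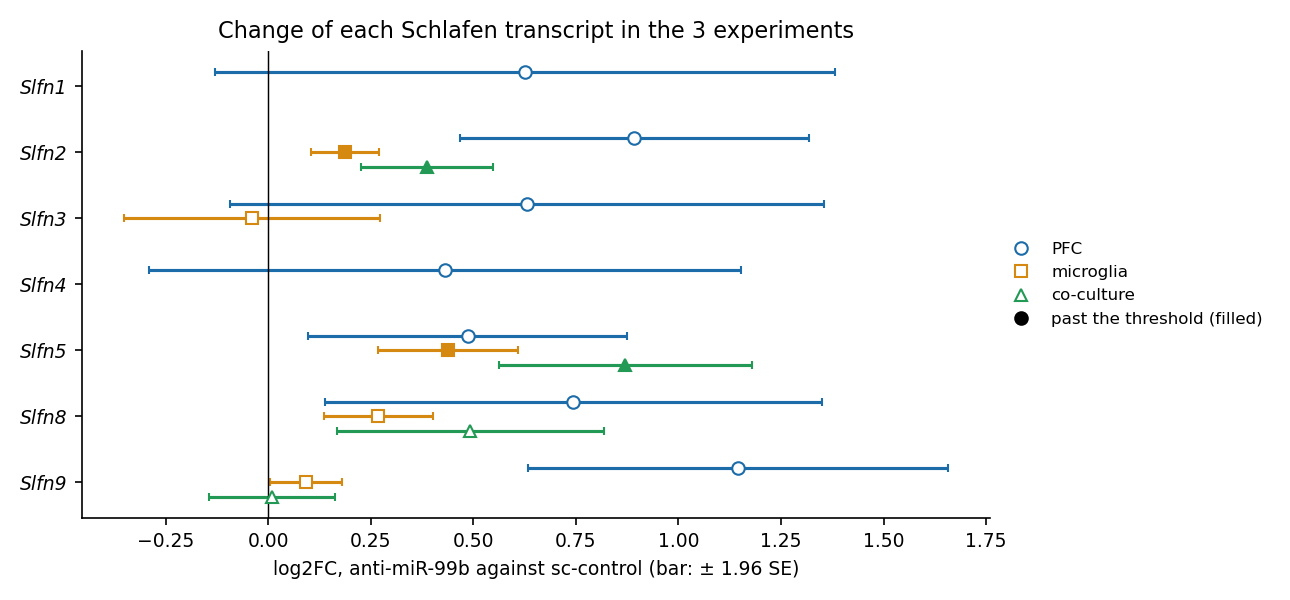
The log2FC of each Schlafen transcript after anti-miR-99b against sc-control, with its approximate 95% interval, for PFC (circles), microglia (squares) and co-cultures (triangles). Filled symbols passed the threshold of their experiment. Slfn2 and Slfn5 are filled in the microglia and the co-cultures, and Slfn9 runs from 1.15 in the PFC to 0.01 in the co-cultures.

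In the co-cultures, the same 2 members rose. Slfn5 rose by 1.83-fold and Slfn2 by 1.31-fold, out of 4 members that passed the filter, where 0.846% of 16193 genes rose and 0.556% fell, 1.4% in all. The threshold was an adjusted p-value below 0.05 with a log2FC past 0.1 in size. Slfn1, Slfn3 and Slfn4 were under the filter, with 3, 25 and 49 reads over the 15 libraries. At an unadjusted p-value below 0.05, 3 members were higher (Slfn2, Slfn5 and Slfn8), as were 6.4% of genes, and all 4 had a log2FC above 0, as did 51.6%.

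Slfn5 ranged from 0.751 to 1.49 CPM with a median of 1.13 in the 7 anti-miR-99b libraries and from 0.454 to 0.837 CPM with a median of 0.611 in the 8 sc-control libraries. Of the treated libraries, 6 lay above every sc-control library. The log2FC was 0.87 (SE 0.16, edgeR adjusted p = 0.00344), and the exact permutation test gave p = 0.000311 (two-sided, 1 of 21 such tests over members and experiments). These levels rest on 360 reads in all, between 12 and 40 a library.

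Slfn2 ranged from 6.01 to 8.14 CPM with a median of 6.29 after anti-miR-99b and from 4.21 to 6.08 CPM with a median of 4.92 after sc-control. The log2FC was 0.39 (SE 0.08, edgeR adjusted p = 0.0125) and the exact permutation p was 0.000777. All 7 treated libraries lay above the sc-control median for either gene. Taken over all lanes, 1 treated library of each gene fell within the range of the controls, so that 0 members were free of overlap, against 0.303% of genes higher and 0.58% in either direction.

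Slfn8 had a log2FC of 0.49 (SE 0.17) that did not pass (edgeR adjusted p = 0.158). It ranged from 1.17 to 1.66 CPM with a median of 1.53 after anti-miR-99b, and from 0.492 to 1.60 CPM with a median of 0.951 after sc-control. Slfn9 did not differ by more than the spread of the libraries. It ranged from 4.59 to 6.45 CPM (median 5.33) and from 4.72 to 6.36 CPM (median 5.44), and the 95% interval of its log2FC ran from −0.14 to 0.16 around 0.01.

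The co-culture libraries came from 4 lanes that each held both groups, with 1 to 3 libraries of a group in a lane. For Slfn2 and for Slfn5, every treated library lay above every sc-control library of its lane, in all 4 lanes, as was so for 0.92% of all genes. In the single lanes 4, 5, 6 and 7, this held for 2, 3, 4 and 2 of the 4 members and for 17.6%, 20.6%, 50.6% and 10.2% of genes. With the lane as a block, 2 members passed in the co-cultures (Slfn2 and Slfn5).

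**Figure D4:**
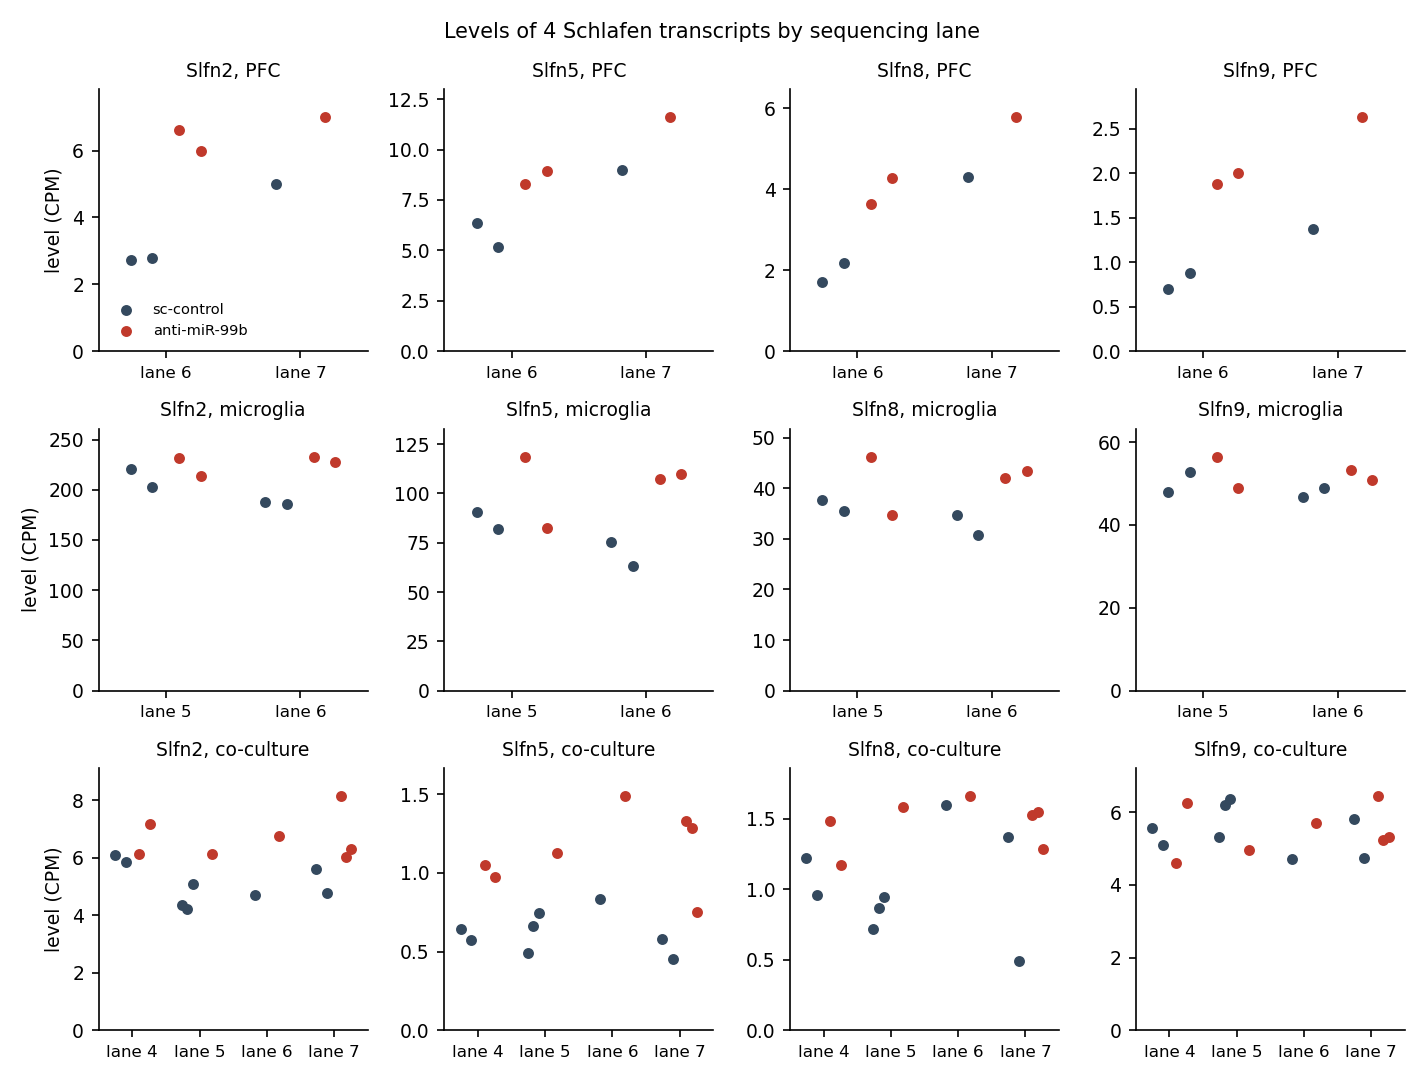
Levels of Slfn2, Slfn5, Slfn8 and Slfn9 in CPM by sequencing lane, with a row of panels for the PFC, the microglia and the co-cultures and each axis starting at 0. Points are libraries, sc-control in dark blue and anti-miR-99b in red. In the co-cultures the red points of Slfn2 and Slfn5 lie above the dark blue points of their lane in all 4 lanes, and those of Slfn9 do not.

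Microglial markers moved with these results. Of the 14 tested in the co-cultures, 13 were higher and 5 rose past the threshold: Cx3cr1 (log2FC 0.39), Csf1r (0.34), Olfml3 (0.45), C1qa (0.34) and Trem2 (0.70). The sum of the list lay between 190 and 212 CPM in the treated and between 176 and 200 CPM in the sc-control co-cultures. Per 1000 CPM of the list, Slfn5 stood at 5.59 ± 1.07 CPM after anti-miR-99b (n = 7) and 3.39 ± 0.724 CPM after sc-control (n = 8), with an exact permutation p of 0.000932 (two-sided). On the same scale Slfn2 stood at 32.6 ± 3.27 and 27.6 ± 3.10 CPM, with an exact permutation p of 0.00684. Slfn9 stood at 26.97 ± 2.86 and 29.8 ± 3.28 CPM, with an exact permutation p of 0.101. The markers of the list differed in how far they set the cultures apart, since Sall1 stood at 29.3 CPM after sc-control here and at 37.6 CPM in the microglia, and Cx3cr1 at 9.29 and 1452 CPM. The log2FC of Slfn2, at 0.39, lay within the range of the 5 markers that rose, from 0.34 to 0.70, and that of Slfn5 lay above it. Whether more microglia or more of these transcripts per microglial cell were present was not tested.

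The effects were then compared between experiments in one edgeR quasi-likelihood fit over all 29 libraries. The effect on Slfn9 was larger in the PFC than in the microglia by 1.04 on the log2 scale (95% interval 0.60 to 1.49, edgeR adjusted p = 0.0249), where 0.469% of genes passed. It was larger in the PFC than in the co-cultures by 1.15 (0.69 to 1.60, edgeR adjusted p = 0.00861), where 0.791% passed. Leaving out PFC sc-control replicate 2 ended both calls, with differences of 0.82 and 0.93 and edgeR adjusted p-values of 0.213 and 0.112. Leaving out sc-control replicate 3 ended the first, at 0.97 with an adjusted p-value of 0.0511.

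For Slfn2 the effect in the PFC was larger than that in the microglia by 0.68 (0.35 to 1.02), which did not pass in edgeR (adjusted p = 0.0573) but did in DESeq2 (adjusted p = 0.00973). With a PFC sc-control mouse left out it was 0.51 (replicate 2, edgeR adjusted p = 0.326), 0.55 (replicate 3, 0.117) or 1.04 (replicate 4, 0.000129). Without PFC anti-miR-99b replicate 3 it was 0.61 (edgeR adjusted p = 0.0489). Between PFC and co-cultures the effect on Slfn2 differed by 0.51 (0.15 to 0.86, edgeR adjusted p = 0.168), or by 0.86 without PFC sc-control replicate 4 (edgeR adjusted p = 0.00317). For Slfn5 the difference between PFC and microglia was 0.03, with an interval from −0.33 to 0.40. It was −0.38 between PFC and co-cultures (−0.98 to 0.22) and −0.41 between microglia and co-cultures (−0.96 to 0.13). Between microglia and co-cultures, 0 members differed by this test, with 0 at an unadjusted p-value under 0.05 and 0 in DESeq2, where 0.0844% of genes passed.

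The interferon pathway was described beside the family with a list of 63 genes. Type I interferons bind the receptor of Ifnar1 and Ifnar2, which activates a complex with Stat2 and Irf9 that binds the ISRE. The ligands Ifnb1, Ifna2, Ifna4 and Ifng were at or near 0, with at most 4 reads over the libraries of an experiment. The receptor genes had log2FC between −0.06 and 0.15 in the 3 experiments, with 0 past the threshold. Among the 47 effectors, which are known interferon-induced genes, most had a log2FC above 0.

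In the PFC, 46 of 46 tested effectors had a higher mean after anti-miR-99b, as did 50.6% of all genes. Their median log2FC was 0.65, close to the 0.63 of the Schlafen members, against 0.00 for all genes. Past the threshold was 1 of these effectors, where 0.0864% of all genes were. It was Mx2, a dynamin-like antiviral GTPase, at 6.29 ± 1.17 CPM against 2.30 ± 0.384 CPM (log2FC 1.45, edgeR adjusted p = 0.0320). Stat2 had a log2FC of 0.40 and Irf9 of 0.40, neither past the threshold (edgeR adjusted p = 0.234 and 0.648).

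In the microglia, 34 of 58 tested genes of the list rose and 0 fell, where 0.435% of all genes rose and 0.0535% fell. Of the effectors, 45 of 46 had a log2FC above 0, as did 51.6% of all genes. The median was 0.34 among effectors, 0.19 among the Schlafen members and 0.00 among all genes. The first 5 by p-value were Ifit3b (log2FC 0.77), the interferon regulator Irf7 (0.65), the nucleic acid sensor Zbp1 (0.61), the RNA-activated kinase Eif2ak2 (0.27) and Oas1a (0.40). Stat2 (0.33, edgeR adjusted p = 0.0405) rose as well, and Irf9 did not pass (0.16, edgeR adjusted p = 0.323). As for Slfn2 and Slfn5, this count depended on single libraries. It was 0 without sc-control replicate 4, 4 without sc-control replicate 6, and 5, 14 and 1 without anti-miR-99b replicates 1, 4 and 5, by edgeR.

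In the co-cultures, 43 of 43 tested effectors had a log2FC above 0, as did 51.6% of all genes. Their median was 0.14, against 0.44 for the 4 Schlafen members and 0.00 for all genes. Parp14 (log2FC 0.39, edgeR adjusted p = 0.0113) and Rsad2, or viperin (0.39, edgeR adjusted p = 0.0254), rose, where 0.846% of all genes did. Stat2 (0.11) and Irf9 (0.07) did not pass, with edgeR adjusted p-values of 0.0878 and 0.686. The log2FC of Slfn5, at 0.87, lay above those of all 55 genes of the list tested in the co-cultures.

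**Figure D5:**
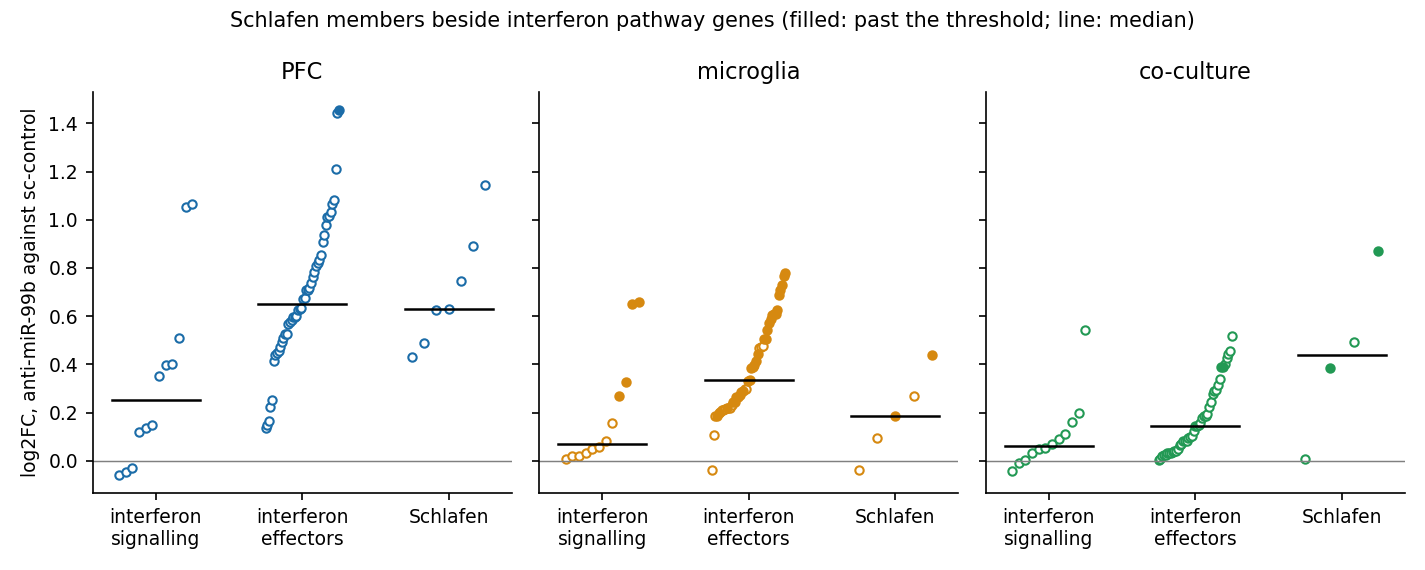
The log2FC after anti-miR-99b against sc-control of interferon signalling genes, interferon effectors and Schlafen members in the 3 experiments. Points are genes, filled where past the threshold, and lines are medians. The effector medians are 0.65, 0.34 and 0.14 and the Schlafen medians 0.63, 0.19 and 0.44 in the same order.

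The genes with the most similar pattern were looked up for the 4 members that passed the filter in all 3 experiments. The measure was Pearson's r of log2(CPM + 0.5) over the 29 libraries, after the mean of each experiment had been subtracted, among 13650 genes. The libraries share treatment and lane, so that r is a description. For Slfn5 the first 5 were the interferon-induced genes Ifi204 (r = 0.910), Parp14 (0.883) and Xaf1 (0.849), then Slfn8 (0.834) and Ifi44 (0.830). For Slfn8 they were the RNA sensor Ifih1 (0.861), Slfn5 (0.834), Ifi204 (0.828), the antiviral factor Zc3hav1 (0.819) and Ifi27l2a (0.814).

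Slfn2 and Slfn9 had other neighbours. For Slfn2 they were the galectin gene Lgals9 (r = 0.905), the class I histocompatibility genes H2-K1 (0.899) and H2-Q4 (0.890), the protease gene Ctss (0.895) and the macrophage gene Ms4a7 (0.892). For Slfn9 they were Apobec1 (0.835), the kinase gene Ripk1 (0.820), the receptor gene Tlr2 (0.819), the leukocyte actin-bundling gene Lcp1 (0.815) and the peptide transporter gene Tap1 (0.812). Tap1 is itself among the effectors of the interferon list, so that these neighbours are not a group apart from interferon-induced genes. None of the first 5 of Slfn9 was among those of Slfn5 or Slfn8.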

How the data were processed

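The authors deposited raw read counts per Ensembl gene for 29 libraries, 1 table an experiment. Per the submitters' processing notes, bcl2fastq 2.20.2, FastQC 0.11.5, STAR 2.5.2b (mm10) and featureCounts 1.5.1 were used, and the annotation release and strand setting are not given in the sources used here. Of 48709 identifiers, 48349 were matched to symbols of GENCODE M21, and 0 columns lacked a sample. Promoters and the microRNA came from RefSeq tables (GRCm38.p6).

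Counts were tested with edgeR 4.0.16 (R 4.3.3, TMM, filterByExpr, quasi-likelihood), one fit an experiment, with Benjamini-Hochberg adjustment over all genes tested. Intervals on log2FC are 95% intervals from the SE by the normal approximation. DESeq2 1.42.0 and 1 RUVs factor, which the study names, were alternatives, as were RLE size factors, other filters (none, or at least 10 counts in every library), the lane or the replicate number as a block, and leaving out each library. CPM are counts scaled by library totals of the genes that passed the filter, normalized by TMM. The 21 exact permutation tests of single members were two-sided and not adjusted. The scripts were tested on simulated data. Members and lists were chosen with earlier results of these data known. Named were the members, other Schlafen genes past the filter, interferon genes past the threshold (at most 5 an experiment by p-value) with ligands, receptors, Stat2 and Irf9, and the 5 genes most like each member. One further gene of this rule is not reported here. Values by lane, levels per microglial marker signal and the markers named in the co-cultures were chosen after values were seen, as was leaving out libraries in the fits across experiments.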

Additional observations from a re-analysis of the deposited data

Results flagged for a closer look

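The effect of anti-miR-99b on Slfn9 differed between experiments by the test of the difference in one edgeR fit over 29 libraries. It was larger in the PFC than in the microglia by 1.04 on the log2 scale (edgeR adjusted p = 0.0249) and larger in the PFC than in the co-cultures by 1.15 (edgeR adjusted p = 0.00861). All 3 treated mice lay above all 3 sc-control mice, at 1.88 to 2.63 CPM against 0.698 to 1.37 CPM, as was so for 7.52% of genes. The groups overlapped in both cultures, which had more libraries a group. There 1.65% (microglia) and 0.303% (co-cultures) of genes were higher without overlap, so that no conclusion is drawn from this contrast. Both calls, but not the direction, were lost without PFC sc-control replicate 2, at 0.82 and 0.93 (edgeR adjusted p = 0.213 and 0.112), and the first also without sc-control replicate 3, at 0.97 (0.0511). The experiments differ in strain, age, tissue, route of delivery and time from treatment to RNA, which cannot be told apart. A search for single libraries far from their group, in 18 groups of values, found 0, where chance gives about 1 in 20. With as few as 3 libraries a group, such a search can hardly single out a library, so that no conclusion is drawn from it.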

How the results depend on the processing

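Members past the threshold in the PFC numbered 0 in edgeR, 2 in DESeq2, 3 with 1 RUVs factor, 2 with the lane as a block, 4 with no filter on low counts and 0 to 3 when 1 library was left out (3 without sc-control replicate 4). In the microglia they numbered 2, with 1 in DESeq2 and 0 to 3 when 1 library was left out. In the co-cultures they numbered 2 under every alternative but the replicate block. The genes past the threshold numbered 15 in the PFC, with 160 (RUVs), 93 (DESeq2), 77 (lane), 412 (no filter) and 1 to 201 when a library was left out (1 without anti-miR-99b replicate 2 or sc-control replicate 2, 201 without sc-control replicate 4). They numbered 73 in the microglia, with 113 (RUVs), 38 (DESeq2), 167 (no filter) and 2 to 409 when a library was left out (2 without sc-control replicate 4, 409 without sc-control replicate 2), and 227 in the co-cultures, with 510 (RUVs) and 121 (lane). Of the interferon list, 1 gene passed in the PFC, with 36 (RUVs), 14 (DESeq2), 24 (lane), 39 (no filter) and 0 to 28 when a library was left out. In the microglia 34 passed, with 8 in DESeq2 and 0 to 48 when a library was left out, and in the co-cultures 2, with 5 (RUVs) and 1 (lane). Members whose effect differed between PFC and microglia numbered 1, with 2 in DESeq2, 2 with no filter and 0 to 3 when a library was left out, and between PFC and co-cultures 1, with 0 to 2. The log2FC of Slfn3 in the microglia, at −0.04, ran from −0.19 to 0.048 when a library was left out, and that of Slfn9 in the co-cultures, at 0.01, was −0.0017 with RUVs. The causes were not tested. Co-culture libraries were not left out in turn.

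Replicate numbers occur in both groups for 2 pairs of PFC, 2 of microglia and 4 of co-culture libraries, and the labels do not say that a number marks a shared animal or day. Deviations of same-numbered libraries correlated at −0.28 to 0.05, so that the numbers were not taken as pairs. With a replicate block on those libraries, 6, 2 and 0 members, 518, 249 and 93 genes and 49, 28 and 1 interferon genes passed in the PFC, microglia and co-cultures. In that fit the log2FC was 0.23 for Slfn3 in the microglia and −0.12 for Slfn9 in the co-cultures. Slfn5 rests on 12 to 40 reads a library in the co-cultures, and Slfn1, Slfn3 and Slfn4 are near the counting floor there.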

Other observations

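Of the other Schlafen-named genes, Slfn10-ps passed the filter in the microglia and was given above. Slfn14, next to the cluster, had 2 reads over the PFC libraries, 1 over those of microglia and 10 over those of co-cultures, and Slfnl1, on chromosome 4, had 21, 8 and 10 reads.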
